A study of Mus musculus with 20 samples.

Results

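The olfactomedin family genes are those whose proteins carry an olfactomedin domain, a fold of the secreted noelins, photomedins and myocilin. The set described here was a list of 9 genes, Olfm1, Olfm2, Olfm3, Olfm4, Olfml1, Olfml2a, Olfml2b, Olfml3 and Myoc, matched by gene symbol. A named probe was found for 7 of the 9 among 19505 genes measured, and each of the 7 had 1 probe. Olfm4 and Myoc had no named probe in the annotation used and were not analysed here. The question was whether other family genes differed where Olfm2 was missing, and how their levels compared between fat depots.

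Expression arrays measured total RNA of mouse adipocytes that, per the labels, came from adipose tissue and were differentiated in vitro. There were 20 arrays in 4 groups of 5, Olfm2 knockout from the depot labelled sc (KO sc), wild type from sc (WT sc), Olfm2 knockout from the depot labelled g (KO g) and wild type from g (WT g). The labels give the genotype only as knockout or wild type. The series' design text puts the name PKP2, another gene, on the 10 sc samples where every label has Olfm2. The labels were followed, and which is right for sc is not stated. Olfm2 itself measured lower in KO sc than in WT sc, with no overlap of arrays, as given below. The labels state no allele, promoter or Cre line, no strain, sex or age, and not whether the samples came from separate animals. The p-values therefore measure only the spread between these samples.

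The median log2 signal of an array was 5.78 to 5.92, and arrays of 1 group correlated with r from 0.95 to 0.99. All 16 measured mature adipocyte markers were above the background of negative control probes on all arrays of every group, with list means of 11.46 in KO g and 11.02 in WT g, and of 11.65 in KO sc and 11.56 in WT sc. Markers of other cells were present too. All 11 measured macrophage markers were above background on all arrays, with list means of 9.03 to 9.55 in KO g, against 9.77 to 10.22 in WT g. The hepatocyte list mean was above 7 on 8 arrays, 2 of KO sc, 0 of WT sc, 4 of KO g and 2 of WT g, and reached 10.54 in KO g. The lymphocyte list mean was above 8 on 3 arrays, 2 of KO sc (sc317KO and sc320KO) and 1 of WT sc (sc286WT), and at most 7.25 on the others. Skeletal muscle markers averaged 7.96 and 7.33 on the same KO sc arrays and 11.04 on the same WT sc array, and 9.13 on sc307WT. The labels, which name adipocytes differentiated in vitro, do not account for these markers of other cells. Where they came from was not tested.

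Olfactomedin-domain proteins are mostly secreted glycoproteins that bind receptors and matrix at the cell surface. The noelins, encoded by Olfm1 to Olfm3, are best known from the nervous system, where they associate with AMPA-type glutamate receptors, and Olfm1 also binds the Nogo receptor complex. Olfml2a and Olfml2b encode the photomedins, which bind chondroitin sulphate. Olfml3 encodes a matrix protein known from dorsoventral patterning in frog embryos, and myocilin, encoded by Myoc, is known from the trabecular meshwork of the eye.

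Promoter windows are shown for Olfm2, the gene removed, for Olfml1 and Olfml2b, the other members that passed a test below, and for Olfm1 and Olfml3, whose levels varied together across arrays. Sequences are from RefSeq on GRCm38.p6 and run 5′ to 3′ on the gene's strand from 250 bases before the start to 50 after it. All 9 listed genes matched, with 13 windows. Capitals mark matches, on either strand, to the TATA box TATAAA, the CCAAT box CCAAT, the GC box GGGCGG, the E box CACGTG, the cyclic AMP response element TGACGTCA, the AP-1 site TGANTCA and the nuclear receptor motif AGGTCA. A match is a description of the letters and no evidence of binding.
Olfm2, first of 3 windows, chr9:20746247-20746546, minus strand: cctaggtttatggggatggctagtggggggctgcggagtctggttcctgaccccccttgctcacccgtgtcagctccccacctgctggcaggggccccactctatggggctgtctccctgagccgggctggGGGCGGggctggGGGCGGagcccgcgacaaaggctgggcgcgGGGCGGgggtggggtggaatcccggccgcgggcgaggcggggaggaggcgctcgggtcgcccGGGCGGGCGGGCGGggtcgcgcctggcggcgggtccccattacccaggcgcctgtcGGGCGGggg
Olfml1, chr7:107567183-107567482, plus strand: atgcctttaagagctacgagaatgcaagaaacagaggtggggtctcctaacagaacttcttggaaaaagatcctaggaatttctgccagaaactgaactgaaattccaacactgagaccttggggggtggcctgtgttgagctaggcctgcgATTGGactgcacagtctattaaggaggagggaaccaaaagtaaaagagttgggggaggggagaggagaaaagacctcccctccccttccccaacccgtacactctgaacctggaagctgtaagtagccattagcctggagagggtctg
Olfml2b, chr1:170644282-170644581, plus strand: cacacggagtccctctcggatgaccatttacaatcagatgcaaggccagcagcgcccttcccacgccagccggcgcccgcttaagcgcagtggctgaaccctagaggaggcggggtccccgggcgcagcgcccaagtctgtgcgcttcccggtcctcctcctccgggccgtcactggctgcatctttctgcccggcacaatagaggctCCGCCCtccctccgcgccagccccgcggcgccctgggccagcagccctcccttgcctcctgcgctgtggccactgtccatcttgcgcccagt
Olfm1, first of 2 windows, chr2:28192843-28193142, plus strand: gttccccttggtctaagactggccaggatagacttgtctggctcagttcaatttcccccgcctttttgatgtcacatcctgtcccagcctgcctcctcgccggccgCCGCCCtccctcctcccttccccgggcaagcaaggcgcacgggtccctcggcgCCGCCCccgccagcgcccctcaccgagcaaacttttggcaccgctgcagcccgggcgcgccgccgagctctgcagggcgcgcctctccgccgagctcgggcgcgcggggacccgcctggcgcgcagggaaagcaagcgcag
Olfml3, chr3:103737952-103738251, minus strand: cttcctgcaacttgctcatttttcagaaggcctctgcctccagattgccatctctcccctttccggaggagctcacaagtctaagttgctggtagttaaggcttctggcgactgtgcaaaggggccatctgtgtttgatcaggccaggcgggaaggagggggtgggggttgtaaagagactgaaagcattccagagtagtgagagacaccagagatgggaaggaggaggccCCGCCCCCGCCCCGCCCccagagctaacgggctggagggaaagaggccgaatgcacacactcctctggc

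The Olfm2 window shown held 7 GC boxes, some overlapping each other, and Olfml3 held 3, some also overlapping. Olfm1 held 2 GC boxes and Olfml2b held 1, while Olfml1 held a CCAAT box and no GC box. GC boxes are common in such windows, being found in 35.7% of all 32851, and CCAAT boxes in 37.4%. The other motifs were not found in these 5 windows. Over all windows their shares were 13.6% for the TATA box, 7.15% for the E box, 1.79% for the cyclic AMP response element, 7.81% for the AP-1 site and 16.3% for the nuclear receptor motif.

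Values below are RMA log2 signals, and each difference is a log2 difference with its moderated standard error (SE). A gene was called where limma gave an adjusted p under 0.05 with Benjamini-Hochberg adjustment over all 19505 genes. Knockout against wild type called 0.677% of all genes in sc and 11.3% in g. In sc 1 of 7 members was called, Olfm2 itself, and in g 2 of 7, Olfm2 lower and Olfml1 higher. The members' median difference was −0.08 in sc and −0.17 in g, against 0.01 and 0.02 over all genes. Arrays of the groups did not overlap for 1 of 7 members in sc, where 2.94% of all genes had no overlap, and for 3 of 7 in g, where 10.4% had none. Leaving Olfm2 aside, 0 of 6 members were called by limma in sc, where 0 had an unadjusted p under 0.05, and 1 of 6 in g. With 6 genes, 1 call is near the share over all genes in g.

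**Figure D1:**
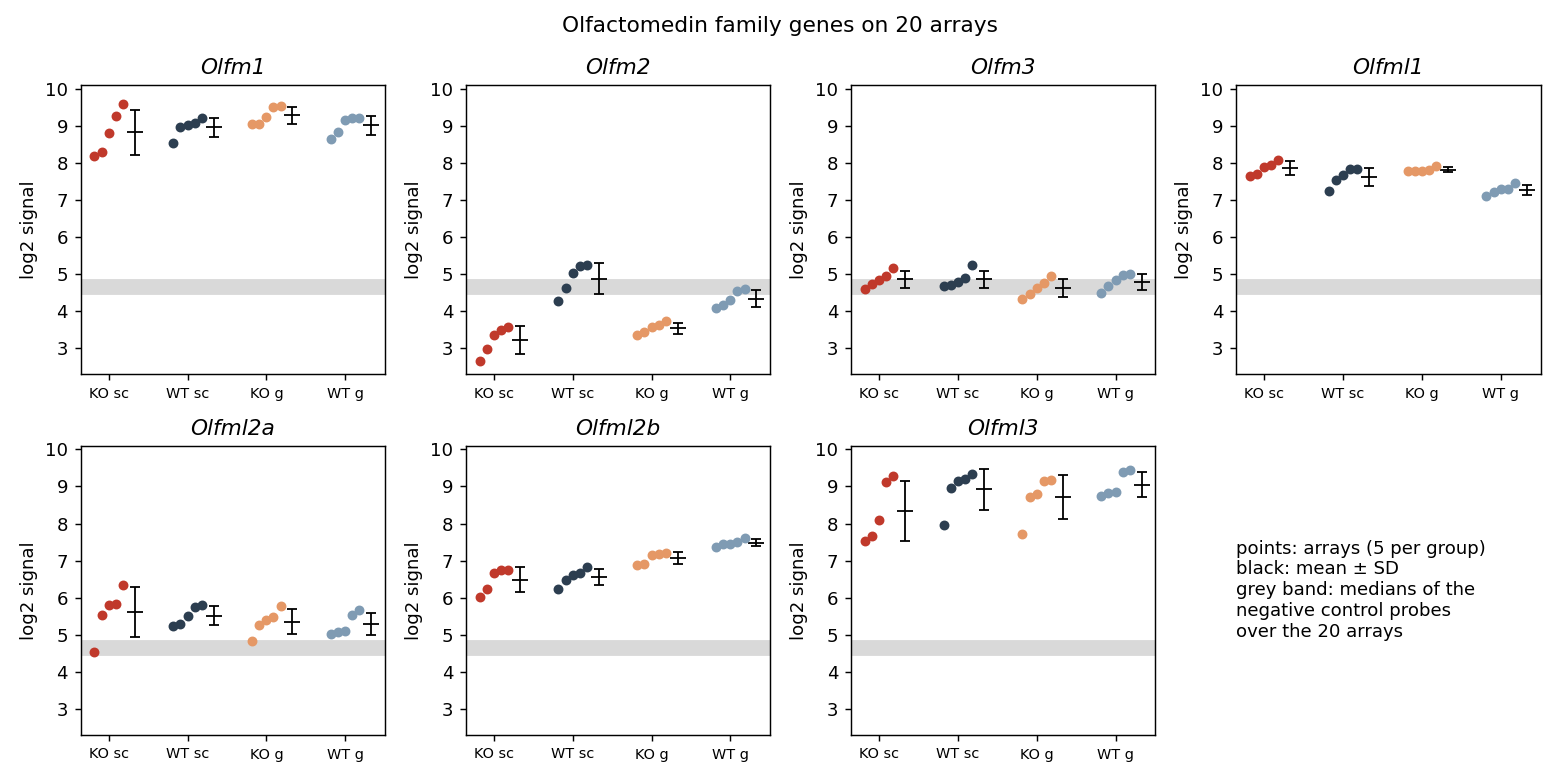
Log2 signal of each of the 7 members on every array (points) with the group mean and SD, in the groups KO sc, WT sc, KO g and WT g. Olfm2 lies lower in both knockout groups, Olfml1 is higher in KO g than in WT g, and Olfml2b is higher in g than in sc.

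Olfm2, the targeted gene, was lower in the knockout groups of both depots. It measured 2.67 to 3.58 in KO sc (median 3.36), against 4.28 to 5.25 in WT sc (median 5.02), a difference of −1.66 (SE 0.19, limma adjusted p = 0.000152). In g it measured 3.36 to 3.72 in KO arrays (median 3.56), against 4.08 to 4.60 in WT arrays (median 4.30), a difference of −0.80 (SE 0.19, limma adjusted p = 0.00784). The groups did not overlap in either depot, where the exact two-sided permutation p was 0.00794, the smallest that 5 against 5 arrays allow. Where the Olfm2 probe lies relative to the deleted part is not stated in the sources used here.

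The Olfm2 signal was near the negative controls even in wild type. It exceeded the median of an array's negative control probes on 0 of 5 KO sc, 3 of 5 WT sc, 0 of 5 KO g and 0 of 5 WT g arrays, and their 95th percentile on none. Every knockout array lay below that median, so the median is not the lowest signal this probe gives. Set against that background, the KO sc level was at least 1.14-fold lower than the WT sc level, from means of 3.22 and 4.88. Both g groups were not above background, so no fold is given there. The call in sc held under all 34 alternatives, and the call in g under 31 of 34. It was lost without the arrays of high hepatocyte markers (−0.85, limma adjusted p = 0.383), with a macrophage covariate (−0.84, 0.512 by limma) and with a fibroblast covariate (−0.63, 0.317 by limma). Macrophage markers did not overlap between KO g and WT g. Neither did the fibroblast list, at 9.05 to 9.36 in KO g and 9.45 to 9.61 in WT g, where 6 of its 15 measured genes were called lower, beside 11.3% of all genes. Either covariate and the genotype therefore cannot be told apart in g.

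Between depots, Olfm2 in wild type was 4.34 ± 0.23 in g and 4.88 ± 0.42 in sc (SD, n = 5 each), a fitted difference of −0.54 that was just not called (limma adjusted p = 0.0506). With 0 of 5 WT g arrays above background, only a bound on the group means is given, at least 1.14-fold lower in WT g. The arrays of these groups overlapped, and the bound does not take in their spread. The difference was called under 10 of 34 alternatives, among them leaving out sc286WT (−0.69, limma adjusted p = 0.00828). In knockouts, with neither group above background, the means were 3.54 in g and 3.22 in sc. With no array of 3 of the 4 groups above the negative control median, no difference of the knockout effect between depots is given.

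Olfm1, the noelin that binds the Nogo receptor complex, was measured far above background on all 20 arrays and was called in none of the 5 comparisons. It measured 8.19, 8.28, 8.81, 9.25 and 9.58 in KO sc, against 8.54, 8.96, 9.01, 9.06 and 9.20 in WT sc. The KO sc arrays spanned both ends of the WT sc range. The difference was −0.13 with a 95% interval of −0.58 to 0.32. In g it measured 9.04, 9.06, 9.24, 9.50 and 9.54 in KO arrays, against 8.65, 8.82, 9.17, 9.20 and 9.22 in WT arrays. These groups overlapped, with a difference of 0.26 and an interval of −0.19 to 0.72. By group means the order was KO g, WT g, WT sc and KO sc, and no neighbours in it were free of overlap. Olfm1 in knockouts was 0.45 higher in g than in sc by group means, which did not pass (limma adjusted p = 0.294), and by 0.06 without the 3 arrays of high lymphocyte markers (limma adjusted p = 0.915).

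Olfm3, a noelin known from retina and brain, stayed near background. Its group means were 4.85 ± 0.22 in KO sc and 4.86 ± 0.23 in WT sc, and 4.62 ± 0.25 in KO g and 4.79 ± 0.21 in WT g (SD, n = 5 each). It was above the negative control median on 4 of 5 arrays in each sc group and 3 of 5 in each g group. No comparison called it, and the 95% intervals of the knockout difference were −0.30 to 0.29 in sc and −0.46 to 0.13 in g.

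Olfml1, a family member with a secreted product, was higher in KO g. It measured 7.77, 7.79, 7.79, 7.81 and 7.92 in KO g, against 7.10, 7.22, 7.30, 7.31 and 7.46 in WT g. Every KO g array lay above every WT g array. The difference was 0.54 (SE 0.11, 1.45-fold, limma adjusted p = 0.0029), and the exact two-sided permutation p was 0.00794. In bulk samples such as these, fewer cells of a type and less RNA per cell cannot be told apart.

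In sc, Olfml1 measured 7.64, 7.69, 7.88, 7.95 and 8.08 in KO arrays, against 7.25, 7.54, 7.68, 7.82 and 7.83 in WT arrays. These groups overlapped, and the difference of 0.22 (95% interval 0.00 to 0.45) was not called (limma adjusted p = 0.494). The knockout effect in g minus that in sc was 0.32, with a 95% interval of −0.01 to 0.64 (limma adjusted p = 0.394), so a difference between depots was not shown.

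The Olfml1 call in g held under 32 of 35 alternatives, with differences from 0.47 to 0.61. It was lost without the arrays of high hepatocyte markers, which left 1 KO g array (0.50, limma adjusted p = 0.415), with a macrophage covariate (0.50, 0.498 by limma) and with a fibroblast covariate (0.61, 0.0836 by limma). Mature adipocyte markers moved with Olfml1, with r = 0.84 over 20 arrays and 0.68 within groups, and 9 of 16 of them were called higher in KO g, beside 11.3% of all genes, with list ranges of 11.36 to 11.57 in KO g and 10.86 to 11.22 in WT g. Macrophage markers ran the other way, with r = −0.64 over 20 arrays and −0.07 within groups. Their part in the Olfml1 result was not tested beyond these fits.

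**Figure D2:**
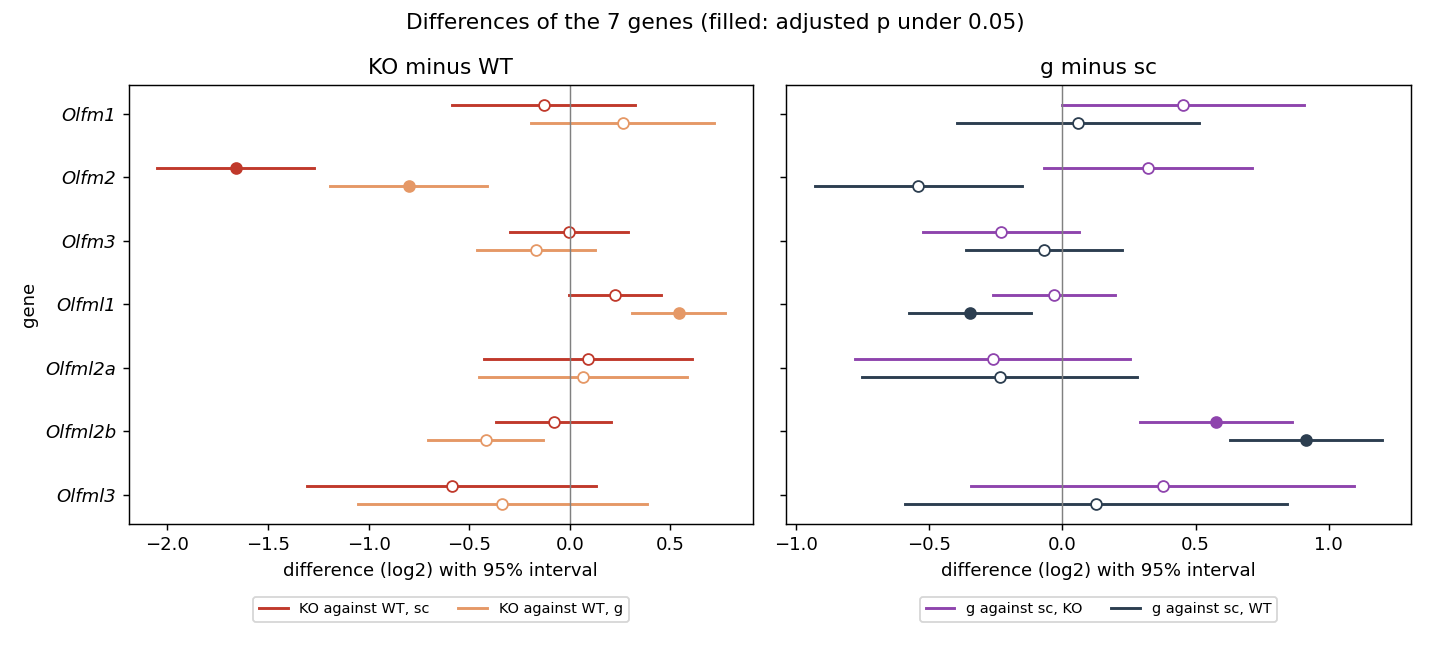
Log2 differences of the 7 members with 95% intervals for knockout against wild type in sc and g and for g against sc in each genotype, with filled points where limma called the gene. Apart from Olfm2, the knockout interval lies clear of 0 for Olfml1 in g (0.31 to 0.77) and for Olfml2b in g (−0.70 to −0.13).

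Among depot comparisons, g against sc called 4.13% of all genes in knockouts and 17.8% in wild type. Of the 7 members 1 was called in knockouts, Olfml2b higher in g, and 2 in wild type, Olfml2b higher and Olfml1 lower. Arrays did not overlap for 1 of 7 members in knockouts, where 4.26% of all genes had no overlap, and for 1 of 7 in wild type, where 16.1% had none. The members' median difference was 0.32 in knockouts and −0.07 in wild type, against −0.02 and −0.04 over all genes. The difference of the knockout effect between depots called 0.0769% of all genes and 0 of the 7 members by limma, where 1, Olfm2, had an unadjusted p under 0.05.

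Olfml2b, a photomedin, had the largest depot difference among the 7 members, in wild type. It measured 7.37, 7.44, 7.46, 7.51 and 7.62 in WT g, against 6.24, 6.48, 6.62, 6.65 and 6.83 in WT sc. The groups were separated by a wide gap, with a difference of 0.92 (SE 0.14, 1.89-fold, limma adjusted p = 8.55e-05). In knockouts it measured 6.88, 6.90, 7.15, 7.18 and 7.20 in KO g, against 6.01, 6.24, 6.67, 6.75 and 6.76 in KO sc. The groups did not overlap here either, and the difference was 0.58 (SE 0.14, 1.49-fold, limma adjusted p = 0.0185).

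The wild-type call held under 33 of 35 alternatives and was lost with a macrophage covariate (1.04, limma adjusted p = 0.478) and a mesothelial covariate (0.64, 0.10 by limma). The knockout call held under 24 of 35. It was lost when sc317KO, sc320KO or g318 KO was left out (limma adjusted p = 0.0548, 0.0531 and 0.0532) and without the 3 arrays of high lymphocyte markers (0.34, 0.0759 by limma). A mesothelial covariate left a difference of 0.23 (limma adjusted p = 0.772). The other 6 losses kept differences of 0.43 to 0.66, with limma adjusted p of 0.0576 with a fibroblast, 0.0706 with a hepatocyte and 0.362 with a macrophage covariate, 0.0714 with array weights, 0.102 with only the arrays compared and 0.431 without the arrays of high hepatocyte markers. Mesothelial markers ran with the depots, with list means of 7.02 in KO g and 6.52 in WT g against 5.14 in KO sc and 5.06 in WT sc. Over 20 arrays Olfml2b had r = 0.74 with them and 0.84 with the macrophage markers, against 0.32 and −0.09 within groups.

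Within g, Olfml2b averaged 7.06 ± 0.16 in KO arrays and 7.48 ± 0.09 in WT arrays (SD, n = 5 each) and the arrays did not overlap. The difference of −0.42 (SE 0.14) was just not called (limma adjusted p = 0.0548), while the exact two-sided permutation p was 0.00794. It was called under 9 of 35 alternatives, among them a fit of the g arrays alone (limma adjusted p = 0.0186), and its value lay between −0.54 and −0.37 in all 35. In sc the means were 6.49 ± 0.34 in KO and 6.56 ± 0.22 in WT arrays, and the difference of −0.08 had a 95% interval of −0.36 to 0.21. By group means the order was WT g, KO g, WT sc and KO sc, and only the last pair overlapped.

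Olfml1 had a different order of group means, KO sc, KO g, WT sc and WT g, and each neighbouring pair overlapped. In wild type it was 7.28 ± 0.13 in g and 7.62 ± 0.24 in sc (SD, n = 5 each), a difference of −0.35 (SE 0.11, limma adjusted p = 0.0318). The call held under 24 of 35 alternatives and was lost when any of sc287WT, sc307WT, sc309WT, g286 WT, g307 WT and g309 WT was left out (limma adjusted p = 0.0554 to 0.0935). It was also lost with only the arrays compared (limma adjusted p = 0.06), without the arrays of high hepatocyte markers (0.154), with the hepatocyte, lymphocyte and skeletal muscle covariates together (0.203), with a mesothelial (0.177) and with a macrophage covariate (0.838). Over all 35 the difference lay between −0.45 and −0.28. In knockouts the depot difference was −0.03, with a 95% interval of −0.26 to 0.20.

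Olfml2a, the other photomedin, varied mostly within groups. It measured 4.53 to 6.35 in KO sc (median 5.81), against 5.23 to 5.81 in WT sc (median 5.50), and 4.83 to 5.76 in KO g (median 5.40), against 5.01 to 5.68 in WT g (median 5.11). All groups overlapped and no comparison called it. The knockout difference had a 95% interval of −0.43 to 0.61 in sc and −0.45 to 0.58 in g.

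Olfml3, the matrix protein gene, was far above background on all 20 arrays and also had wide groups. It measured 7.52, 7.67, 8.11, 9.12 and 9.27 in KO sc, against 7.97, 8.97, 9.16, 9.19 and 9.33 in WT sc. Most of the WT sc arrays lay near the top of the KO sc range, and the groups overlapped. The difference of −0.59 had a 95% interval of −1.30 to 0.13 (limma adjusted p = 0.598). In g it measured 7.73 to 9.17 in KO arrays (median 8.81), against 8.74 to 9.46 in WT arrays (median 8.85), with a difference of −0.34 and an interval of −1.05 to 0.38. The interval in sc still held a log2 difference of more than 1.

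The arrays with high lymphocyte markers were low for 5 members. Olfm1, Olfml1, Olfml2a, Olfml2b and Olfml3 each had their lowest values of KO sc on sc317KO and sc320KO, and sc286WT was the lowest of its group for Olfm1, Olfm2, Olfml1, Olfml2b and Olfml3. Deviations from the group means ran against the lymphocyte list mean over 20 arrays, with r = −0.86 for Olfml2b, −0.82 for Olfml1, −0.78 for Olfm1, −0.69 for Olfml3 and −0.61 for Olfml2a. For Olfm2 and Olfm3, both near background, r was −0.05 and 0.16. The 3 arrays carried skeletal muscle markers as well. Within groups r with that list was −0.72 for Olfml2b, −0.57 for Olfml1, −0.54 for Olfm1, −0.59 for Olfml3 and −0.52 for Olfml2a. Array sc307WT had muscle markers at 9.13 and lymphocyte markers at 5.42. Its deviations were 0.20 for Olfml1, 0.04 for Olfml3, 0.004 for Olfm1, −0.08 for Olfml2b and −0.29 for Olfml2a. Which of the 2 marker lists went with the low values was not tested.

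Without these 3 arrays, a setting chosen after seeing the data, the sc knockout difference of Olfm1 was 0.16, that of Olfml2b 0.08, that of Olfml2a 0.42 and that of Olfml3 −0.33. None was called, and those of Olfm1 and Olfml2b changed sign. The Olfm2 difference was then −1.98, and Olfml1 stood at 0.26 (limma adjusted p = 0.45). In g the Olfml2b difference, −0.42 as before, was called (limma adjusted p = 0.00368).

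**Figure D3:**
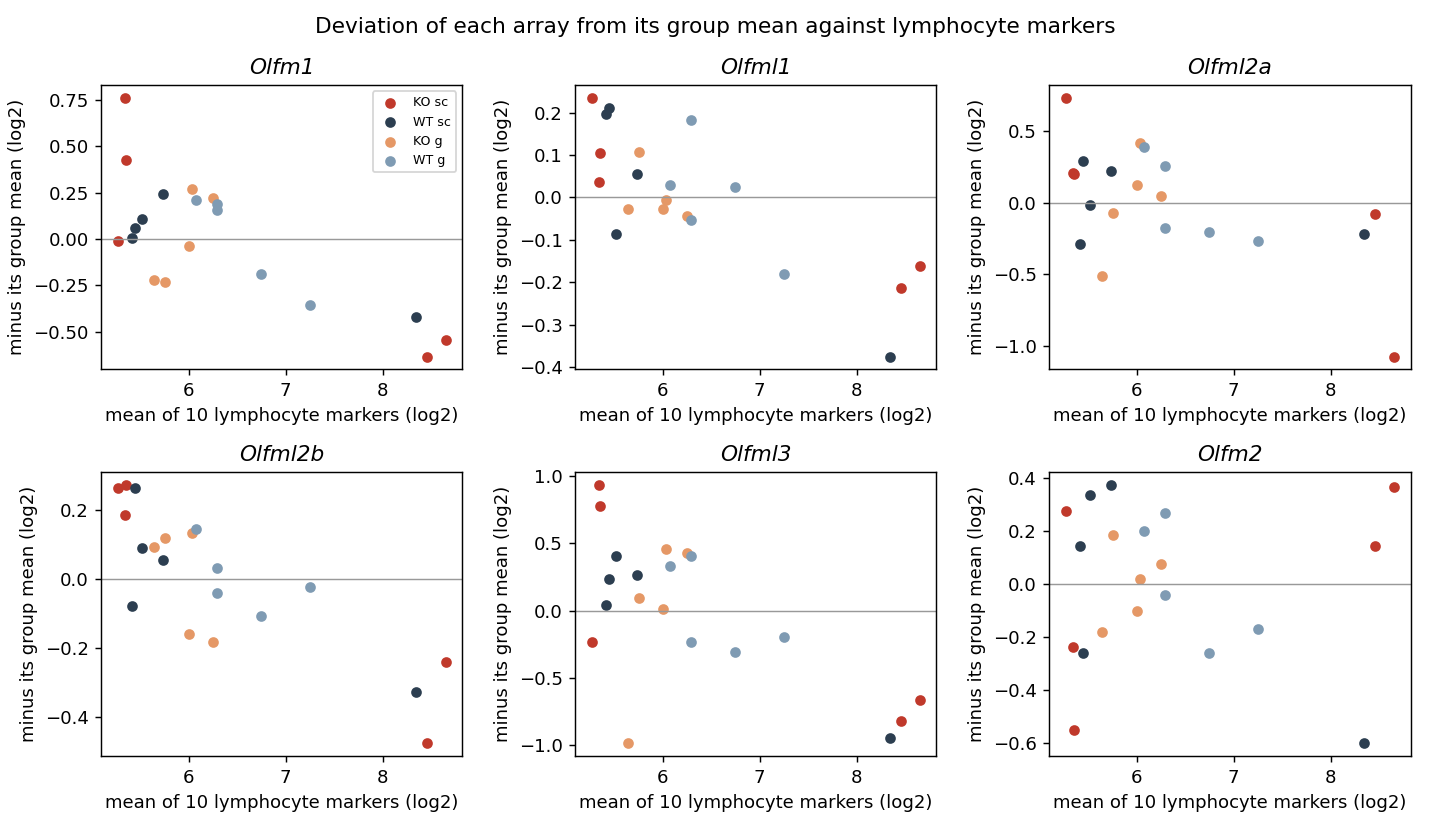
Deviation of 6 members (all but Olfm3) from the group mean (log2) against the mean of the lymphocyte marker list on the same array. The 3 arrays with a list mean above 8 (8.35, 8.46 and 8.65) lie low for Olfm1, Olfml1, Olfml2b and Olfml3.

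Members also varied with each other inside groups. Over 20 arrays, after the group means were removed, r was 0.88 between Olfm1 and Olfml3, 0.72 between Olfml1 and Olfml2b and 0.66 between Olfm1 and Olfml2b. All genes of an array are read from the same RNA, and 3 arrays carry the markers described above, so the values are descriptions.

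The genes most like each member over the 20 arrays were sought by Pearson's r among all genes. Gm and Rik names and olfactory and vomeronasal receptor genes were passed over. The genes named are the extremes of that search, and r over 20 arrays takes in differences between the groups. For Olfm1 they were Rps6ka3, a ribosomal S6 kinase gene (r = 0.92), Mlf2 (0.91) and Mxra8 (0.90), and Tasor, a subunit of the HUSH silencing complex, was lowest (−0.89). For Olfml1 they were Ctdspl, a phosphatase gene (0.95), Isoc1 (0.93) and Ankrd29 (0.92), with Btbd11 lowest (−0.89). For Olfml2a they were Zfp600 (0.83), Zc2hc1a (0.81) and Synpo2, an actin-binding protein gene that is also on the smooth muscle list (0.79), with Pkdcc lowest (−0.75). Olfml2b was most like Ror1, a Wnt5a receptor gene (0.95), Slc44a1, a choline transporter gene (0.94), and Hpcal1, a calcium sensor gene (0.94), with Fh1, fumarate hydratase, lowest (−0.91). Olfml3 was most like Jkamp (0.91), Pigk, a subunit of the GPI transamidase (0.90), and Nek6, a mitotic kinase gene (0.88), with Kmt2e lowest (−0.87). With the group means removed, r for Olfml2b was 0.82 with Ror1, 0.76 with Slc44a1, 0.65 with Hpcal1 and −0.45 with Fh1. For Olfml1 it was 0.88 with Ctdspl, 0.79 with Isoc1, 0.73 with Ankrd29 and −0.81 with Btbd11. The most alike genes of Olfm1, Olfml2a and Olfml3 kept 0.90 to 0.93, 0.80 to 0.87 and 0.87 to 0.90.

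Other genes with an olfactomedin domain included the latrophilins Adgrl1, Adgrl2 and Adgrl3, which are adhesion receptors, and Gldn, which encodes gliomedin. Knockout against wild type called 0 of these 4 by limma in sc and in g, where 1 and 0 had an unadjusted p under 0.05. The smallest p in sc was that of Adgrl2, at 6.14 ± 0.74 in KO and 6.79 ± 0.27 in WT arrays (SD, n = 5 each), a difference of −0.65 (limma adjusted p = 0.313), and it was also the smallest in g, at −0.36 (limma adjusted p = 0.415). Without the 3 arrays of high lymphocyte markers the Adgrl2 difference in sc was −0.14 (limma adjusted p = 0.922). In wild type 2 of 4 were called lower in g than in sc, beside 17.8% of all genes called. Adgrl3 was above background on 0 of 5 WT g and 4 of 5 WT sc arrays, at least 1.10-fold lower in g (limma adjusted p = 0.0141). Gldn was above it on 0 of 5 WT g and 3 of 5 WT sc arrays, so no fold is given. Neither was called with a macrophage covariate, a mesothelial covariate or the hepatocyte, lymphocyte and skeletal muscle covariates together. Leaving out any of sc287WT, sc307WT, sc308WT, g307 WT or g308 WT left 1 of the 4 called lower. Olfm5, an olfactomedin gene outside the lists, had knockout differences of −0.01 in sc and −0.09 in g and was called in no comparison.

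Binding partners and reported targets of olfactomedin-domain proteins formed a list of 28 genes, 27 of them measured. The list was drawn for the domain family and not for Olfm2 alone. In sc 0 of 27 were called between KO and WT by limma, while 2 had an unadjusted p under 0.05, the smaller that of Flot2 at a difference of 0.22 (limma adjusted p = 0.479). In g 6 were lower and 2 higher, a share to be read beside the 11.3% of all genes, and the list's median difference was 0.01, against 0.02 over all genes. In wild type 8 were higher and 1 lower in g than in sc, beside 17.8% of all genes called, and in knockouts 4 were higher, beside 4.13%.

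The 6 genes lower in KO g included 2 cell adhesion genes whose proteins bind gliomedin at nodes of Ranvier. The gliomedin gene Gldn was itself above background on 1 of 5 KO g and 0 of 5 WT g arrays. Nfasc measured 5.19, 5.27, 5.31, 5.41 and 5.78 in KO g, against 6.08, 6.49, 6.52, 6.66 and 6.79 in WT g. Every KO g array lay below every WT g array, with a difference of −1.12 (SE 0.13, limma adjusted p = 5.2e-05). Nrcam measured 3.85, 4.41, 4.54, 4.77 and 5.21 in KO g, where 2 of 5 arrays were above background, against 5.43, 5.57, 5.58, 5.83 and 6.31 in WT g. The groups did not overlap, and KO g was at least 2.01-fold lower (limma adjusted p = 0.000624).

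The knockout effect on Nfasc differed between depots, by −1.15 for g minus sc (SE 0.19, limma adjusted p = 0.0179). In sc it averaged 5.49 ± 0.16 in KO and 5.45 ± 0.18 in WT arrays (SD, n = 5 each). It was called with each of the 20 arrays left out in turn. The call was lost without the 3 arrays of high lymphocyte markers (−1.07, limma adjusted p = 0.0856) and without those of high hepatocyte markers (−1.59, limma adjusted p = 0.0743). It was also lost with a macrophage covariate (−1.03, limma adjusted p = 0.241), a fibroblast covariate (−1.08, 0.0696 by limma) and the hepatocyte, lymphocyte and skeletal muscle covariates together (−1.08, 0.151 by limma). For Nrcam, near background in 3 of the 4 groups, no difference of effects is given.

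The other 4 included the secreted Wnt inhibitors Sfrp1 and Frzb and the Wnt receptor gene Fzd7. Sfrp1 measured 6.89, 7.09, 7.33, 7.86 and 8.11 in KO g, against 8.08, 8.40, 8.60, 8.70 and 8.96 in WT g. Only the highest KO g array reached into the WT g range, and the difference was −1.09 (limma adjusted p = 0.0038). Frzb was at least 1.75-fold lower in KO g (limma adjusted p = 0.0038), with 1 of 5 KO g arrays above background. Fzd7 was lower by −0.68 (limma adjusted p = 0.017) and Ctsc, a lysosomal protease gene, by −0.46 (limma adjusted p = 0.0293). Higher in KO g were Tenm4, a latrophilin ligand gene, by 0.42 (limma adjusted p = 0.044), and Gria4, an AMPA receptor subunit gene, which was above background on 0 of 5 arrays of either group. Neither Tenm4 nor Gria4 was called when g287 WT, g300 KO, g307 WT, g309 WT, g318 KO or g320 KO was left out. The same held with a hepatocyte, a macrophage, a fibroblast or a mesothelial covariate.

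Without the arrays of high hepatocyte markers only 1 KO g array was left against 3 WT g arrays, and that array is assumed to vary like the other groups. In that fit 1 of the 27 was called in g, Nfasc (−1.47, limma adjusted p = 0.0151). With the fibroblast covariate Nfasc was likewise the 1 partner called in g (−0.98, limma adjusted p = 0.0184). With a macrophage covariate limma called 0 of the 27 in g, and 1 over all genes. The Ctsc difference was then −0.09 (limma adjusted p = 0.959) and that of Nfasc −0.91 (limma adjusted p = 0.286).

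**Figure D4:**
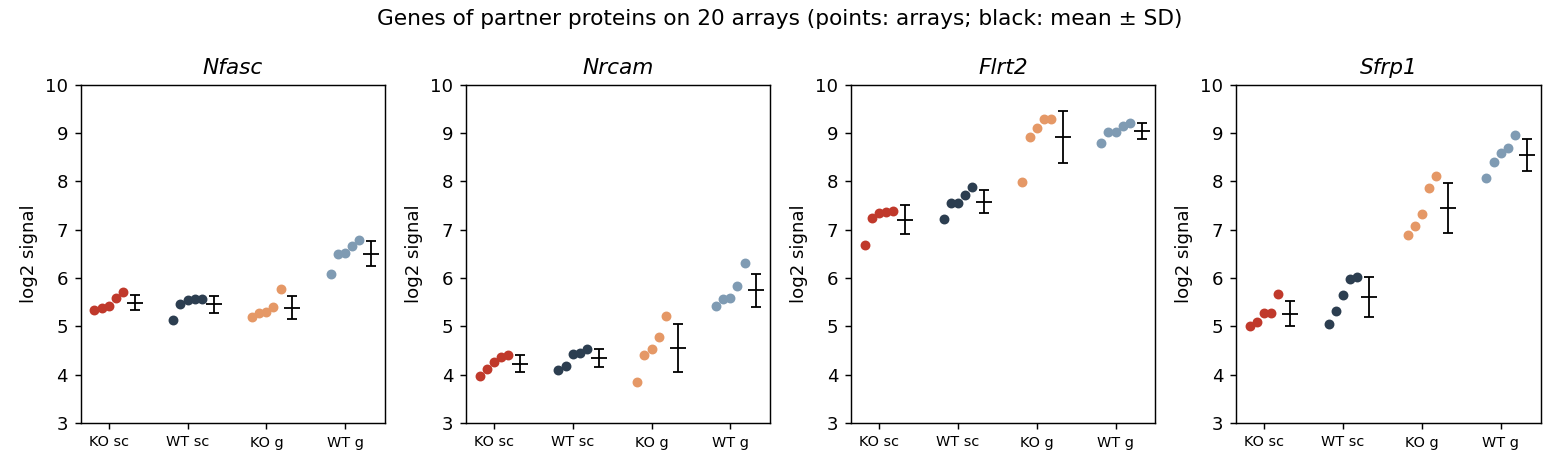
Log2 signal on every array (points, sorted by value within a group) with group mean and SD for the partner genes Nfasc, Nrcam, Flrt2 and Sfrp1. Nfasc and Nrcam lie lower in KO g than in WT g with no overlap, and Flrt2 and Sfrp1 are higher in both g groups than in both sc groups.

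Sfrp1 was also the partner with the largest depot difference, 2.94 for g against sc in wild type and 2.19 in knockouts, with no overlap in either genotype. Flrt2, which encodes another latrophilin ligand, was 1.46 higher in g in wild type and 1.72 higher in knockouts. Nrcam was at least 2.11-fold higher in WT g, with 1 of 5 WT sc arrays above background, and Frzb was at least 1.65-fold higher in WT g, with 0 of 5 WT sc arrays above background. Nfasc, Ctsc, Fzd7 and Gria3 were higher in WT g by 1.05, 0.84, 0.65 and 0.54, and Tenm4 was lower by −0.56. In knockouts Bmp4, a growth factor gene whose product Olfml3 protein binds, was 0.88 higher in g, and Ctsc 0.50 higher. With a macrophage covariate limma called 0 partners between depots in either genotype. Over all genes it then called 1 in wild type and 29 in knockouts. A mesothelial covariate left 5 partners higher in g in wild type and 0 in knockouts, with 2066 and 335 called over all genes. Over 20 arrays the mean of the partner list had r = 0.95 with Olfml2b, and 0.71 within groups.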

How the data were processed

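Total RNA was labelled with biotin and measured on 20 arrays, 5 for each genotype and depot, grouped by genotype and tissue labels. The authors deposited log2 signals normalised by RMA, and limma is named beside it, per the submitters' processing notes, with versions not given in the sources used here. Of 28846 probes 6640 were controls, and 19572 of the other 22206 carried 1 gene symbol. Where a gene had more than 1 probe (55 genes), the probe of highest mean was kept. The 5 comparisons were read from 1 fit of 4 group means (16 residual degrees of freedom) in R 4.3.3 with limma 3.58.1, tested on simulated data. Background is the median of 5222 negative control probes of an array. A bound sets a dim probe at that background. The number of arrays limits the precision, and 0 columns went unused. The family genes and the 13 gene lists were chosen with earlier results of these data known. Named were the members, the called genes of the relatives and partners lists or else the smallest p of each knockout comparison, and the 3 genes most like each member and the 1 least like it. Titles share numbers across depots, each with the same genotype, but whether a number marks a shared animal is not stated, so arrays were not paired. Same-numbered arrays did not deviate together (r from −0.461 to 0.142 over 10 numbers). As such deviations also hold the markers of other cells, they cannot decide the pairing. The 35 alternatives left out each array in turn (20) or changed the fit, filter, scaling or covariates (15). Promoter sequences are from RefSeq.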

Additional observations from a re-analysis of the deposited data

Results flagged for a closer look

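Of 28 sets of 5 arrays, each a member in a group, 2 held an array far from the others, and chance alone marks about 1 in 20. Olfml1 on g320 KO was 7.92, with the next at 7.81 and the lowest at 7.77. Olfml3 on sc286WT, an array with high lymphocyte and skeletal muscle markers, was 7.97, with the next at 8.97 and the highest at 9.33. The knockout effect on Nfasc differed between depots, by −1.15 for g minus sc (limma adjusted p = 0.0179), on the log2 scale.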

How the results depend on the processing

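The members' values under the alternatives came to 1213, of which 1108 kept their direction and side of the threshold, 30 lost the call, 19 gained it, and 56 changed sign while not called. No called member changed sign under the alternatives run. Counts of all genes called moved more. Knockout against wild type in sc (132) gave 233 with array weights, 84 with a hepatocyte covariate, 37 with hepatocyte, lymphocyte and skeletal muscle covariates, 44 with a macrophage and 66 with a fibroblast covariate, and 60 (without sc287WT) to 197 with single arrays left out. In g (2200) the counts were 1077, 1401, 1 and 118 for these 4 covariate fits, 955 with a mesothelial covariate, 43 without the arrays of high hepatocyte markers, and 1425 (without g307 WT) to 2357. Between depots in knockouts (806) they were 311 with only the arrays compared, 118 without those hepatocyte arrays, 29 with the macrophage and 335 with the mesothelial covariate, and 530 (without sc320KO) to 845. In wild type (3468) they were 1398 with the 3 covariates together, 1 with the macrophage and 2066 with the mesothelial covariate, and 2663 to 3770. The difference of effects (15) gave 28 with a trended and robust fit, 30 with array weights, 1 with the 3 covariates and 1 without the hepatocyte arrays, 0 with the macrophage and 0 with the fibroblast covariate by limma (1372 and 1865 genes had an unadjusted p under 0.05), 3 without the lymphocyte arrays, and 4 (without sc307WT) to 41 (without sc286WT). The cause of these shifts was not tested. With the title number as a replicate block (consensus correlation 0.0863) the difference of effects gave 32, Olfm2 in wild type between depots was called (−0.54, limma adjusted p = 0.0373), and no other member's call changed; 3 of 10 numbers correlated best with their own. Olfm2 was below the filter on dim probes and has no value there. The signal over background limits Olfm2 and Olfm3.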
